A study of Mus musculus with 16 samples.

Results

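The 10 genes described here encode RNA-binding proteins that decide which exons are kept when pre-mRNA is spliced. They are the polypyrimidine tract-binding proteins Ptbp1 and Ptbp2, the heterogeneous nuclear ribonucleoproteins (hnRNPs) Hnrnpl, Hnrnpdl, Hnrnph1 and Hnrnpa2b1, the Rbfox family members Rbfox1, Rbfox2 and Rbfox3, and Nova1. They were chosen by name, and every transcript of these genes in the count matrices was taken, which gave 117 of 142435 transcripts. Of the 117, 55 were annotated as protein-coding, 28 as products of a protein-coding gene without a defined coding sequence (CDS), 24 as retained-intron RNAs and 10 as targets of nonsense-mediated RNA decay (NMD). A minimum-count filter was passed in at least 1 brain region by 72 of the 117, and 10 had no counts in any deeply sequenced library.

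RNA was sequenced in bulk from frontal cortex (FC) and cerebellum (Cere) of adult Upf3b-null mice (Upf3b-KO) and of littermates with Upf3b (Ctrl). Each region and genotype had 4 libraries from 4 animals per genotype, and the labels used here give neither strain, sex nor exact age. Upf3b encodes an adaptor that connects the NMD machinery to the exon junction complex. The comparisons ask whether these regulators, and above all their NMD-type transcripts, differed in level or in isoform make-up between genotypes and between the 2 regions.

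Several of these proteins regulate their own genes through NMD. When the protein is abundant it alters splicing of its own pre-mRNA, either by including an exon with an early stop codon, called a poison exon, or by skipping an exon so that the reading frame shifts, and the resulting RNA is degraded rather than translated. In brain, PTBP1 is lost as precursors become neurons and PTBP2 takes its place, Rbfox proteins and NOVA1 bind short motifs beside neuronal exons, and the Rbfox3 product (NeuN) is the standard nuclear marker of mature neurons, although Purkinje cells lack it.

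Depth was 30342874 to 34501210 counts per library in FC and 27660078 to 35238677 in 7 cerebellar libraries. The library Cere Upf3b-KO 1 held only 64981 counts and was left out of all values unless stated, so the Cere Upf3b-KO group has n = 3. Upf3b itself fell from 14.2 to 15.7 CPM (counts scaled to the same library total) to 0.23 to 0.86 CPM in FC and from 20.9 to 23.6 CPM to 0.62 to 0.96 CPM in Cere. The libraries of a group were very alike: the gene-level biological coefficient of variation was 0.0399 in FC and 0.0387 in Cere, and p-values measure only this spread, which may be technical. Cell-type markers differed far more than that between genotypes. The summed level of 6 choroid plexus epithelium markers was 22.3 to 23.2 CPM in FC Ctrl against 2182 to 2233 in FC Upf3b-KO, and 25.3 to 29.2 against 1380.2 to 1398 CPM in Cere, with 6 of 6 higher in each region. In FC, 6 of 6 striatal medium spiny neuron markers were higher (summed level 136 to 145 against 706 to 717 CPM). In Cere, 5 of 5 oligodendrocyte markers were higher (5715 to 5807 against 13688 to 13786 CPM), whereas 4 of 4 granule cell markers (3339 to 3366 against 1748 to 1758 CPM) and 4 of 4 Purkinje cell markers (9998 to 10126 against 3991 to 4006 CPM) were lower. The part of these cell-type differences in the member results below was not tested, and in bulk RNA fewer cells of a type and less RNA per cell cannot be told apart.

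Exons through which the members' NMD-type transcripts differ from the main coding transcript are shown first. Some of them also vary between coding transcripts and do not set the NMD type, as said in each case. Sequences are from GRCm39, are written 5′ to 3′ on the strand of the gene, and have an in-frame stop codon in capitals. Hnrnpl-213 (ENSMUST00000174882) carries an extra exon of 70 nt at chr7:28516760-28516829 on the plus strand, of which the first 59 nt, up to and including the stop codon, are printed. The stop lies 842 nt upstream of the last exon junction of that transcript.
Hnrnpl-213 poison exon, chr7:28516760-28516818: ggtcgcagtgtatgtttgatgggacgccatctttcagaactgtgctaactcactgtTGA

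Ptbp1-201 and Ptbp2-206 instead lack a 34-nt exon, which is not a multiple of 3, so that the frame shifts and a stop follows 361 nt upstream of the last junction. PTBP1 protein is known to promote skipping of this exon in both genes. The 2 paralogous exons share 26 of 34 bases (76.5%).
Ptbp1 exon, chr10:79697848-79697881 (+): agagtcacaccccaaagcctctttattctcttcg
Ptbp2 exon, chr3:119518261-119518294 (-): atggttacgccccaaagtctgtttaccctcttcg

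Ptbp1-201 also lacks a frame-preserving exon of 78 nt at chr10:79695951-79696028, which separates the long coding transcript Ptbp1-216 from Ptbp1-202 as well. It is printed because inclusion of this exon distinguishes the major PTBP1 isoforms.
Ptbp1 exon, chr10:79695951-79696028 (+): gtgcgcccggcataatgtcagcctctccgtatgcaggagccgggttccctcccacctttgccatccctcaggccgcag

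Hnrnpdl has NMD-type transcripts of 2 kinds. Hnrnpdl-205 uses a longer form of an early exon, and the coding part of the addition ends in a stop codon that lies 860 nt upstream of the last junction. In Hnrnpdl-201 the coding sequence is the same length as in the main transcript Hnrnpdl-202 (1260 nt), and an extra 105-nt exon at chr5:100183494-100183598 beyond the stop moves the last junction from 21 nt to 126 nt downstream of it, past the usual 50-nt limit.
Hnrnpdl-205 addition, chr5:100186452-100186578 (-): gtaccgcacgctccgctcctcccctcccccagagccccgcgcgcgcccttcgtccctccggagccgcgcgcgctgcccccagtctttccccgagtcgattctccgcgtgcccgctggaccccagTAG

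Hnrnpa2b1-206 and Hnrnpa2b1-208 also end their coding sequence normally and have a junction 157 nt beyond the stop. They differ from the main transcript Hnrnpa2b1-203 within the coding sequence by a 36-nt exon, gained in Hnrnpa2b1-206 and in the coding transcript Hnrnpa2b1-202, and by a 120-nt exon, lost in Hnrnpa2b1-208 and in the coding transcript Hnrnpa2b1-209. The 36-nt exon is the one that distinguishes the B1 protein from A2, and the 120-nt exon encodes a glycine-rich stretch. Since coding transcripts vary in both exons too, these do not set the NMD type. In Hnrnpa2b1-202, Hnrnpa2b1-203 and Hnrnpa2b1-209 the last junction lies only 21 nt beyond the stop. The sequence beyond the stop that differs in Hnrnpa2b1-206 and Hnrnpa2b1-208 is not printed. Both exons were chosen for printing after the values were seen.
Hnrnpa2b1 exon of B1, chr6:51444371-51444406 (-): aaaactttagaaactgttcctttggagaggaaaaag
Hnrnpa2b1 exon, chr6:51441408-51441527 (-): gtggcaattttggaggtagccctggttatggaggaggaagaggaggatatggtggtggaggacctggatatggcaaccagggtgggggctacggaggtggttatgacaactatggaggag

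Among the 10 NMD-type transcripts, Hnrnpl-213 was the only one that passed the test for a difference between genotypes, and it was higher in Upf3b-KO in both regions. In FC its levels were 3.17, 4.78, 1.46 and 1.78 CPM in Ctrl and 6.32, 8.72, 8.85 and 6.98 CPM in Upf3b-KO. In Cere they were 4.19, 2.75, 2.27 and 3.56 CPM in Ctrl and 10.02, 7.52 and 6.05 CPM in Upf3b-KO. All Upf3b-KO libraries lay above all Ctrl libraries in each region. The log2 fold change was 1.40 (SE 0.38, adjusted p = 0.0393) in FC and 1.30 (SE 0.27, adjusted p = 0.0132) in Cere in the quasi-likelihood test of edgeR, with p-values adjusted by Benjamini-Hochberg across all tested transcripts. The difference between the regions in this effect was -0.09 on the log2 scale (SE 0.49, adjusted p = 0.97).

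The share of the poison exon was also computed. Here and for the exons below it is a share of the counts of coding and NMD-type transcripts, without correction for transcript length. Transcripts that contain the exon made up 2.12% ± 1.14 (SD, n = 4) of the transcripts that span it in FC Ctrl and 5.56% ± 1.003 (SD, n = 4) in FC Upf3b-KO. In Cere the share was 2.32% ± 0.625 (SD, n = 4) in Ctrl and 5.98% ± 1.58 (SD, n = 3) in Upf3b-KO. As a share of all Hnrnpl counts, Hnrnpl-213 took 1.99% and 5.19% in FC and 2.13% and 5.62% in Cere, in Ctrl and Upf3b-KO respectively. The test of transcript usage, which asks whether a transcript changed relative to the others of its gene, did not pass (adjusted p = 0.896 in FC and 0.376 in Cere). The level result is also close to the threshold: in FC it passed under 5 of 14 alternatives, among them 1 of 8 fits without a library (adjusted p up to 0.0985 over all 14), and in Cere under 11 of 14, among them 6 of 7 such fits (adjusted p up to 0.0726 over all 14). The log2 fold change stayed between 1.18 and 1.78 in FC and between 1.09 and 1.46 in Cere. With the replicate number as a block the adjusted p was 0.0729 in FC and 0.0726 in Cere. Of the fits without a library, only the one without Ctrl replicate 2 passed in FC, and only the one without Upf3b-KO replicate 2 did not pass in Cere (adjusted p = 0.0539).

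**Figure D1:**
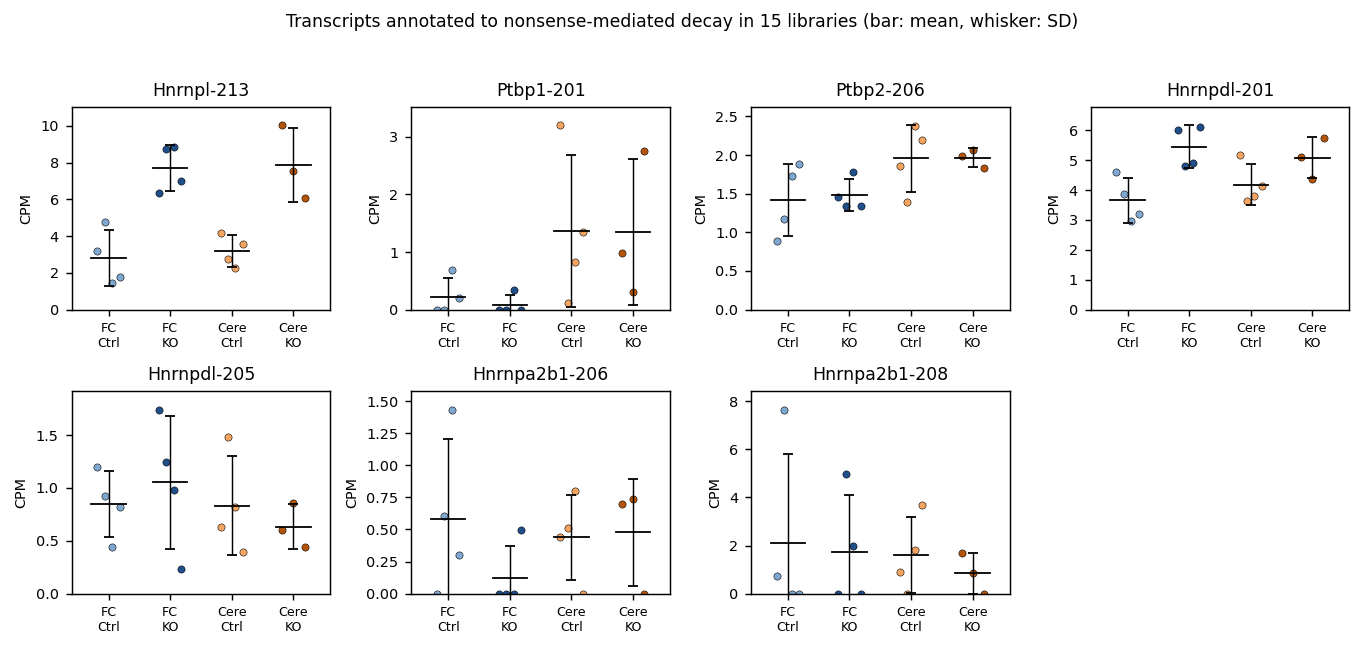
Level in CPM (y axis) of the 7 NMD-type member transcripts that passed the count filter, in 4 groups (x axis: FC or Cere, Ctrl or Upf3b-KO), with a point per library, a bar at the mean and a whisker of 1 SD. In Hnrnpl-213 the Upf3b-KO libraries (6.05 to 10.02 CPM) all lie above the Ctrl libraries (1.46 to 4.78 CPM), whereas in most other panels the groups overlap.

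The remaining NMD-type transcripts did not pass. Hnrnpdl-201 came closest, with 4.61, 3.85, 2.95 and 3.18 CPM in FC Ctrl and 6.02, 4.79, 4.89 and 6.11 CPM in FC Upf3b-KO (log2 fold change 0.51, SE 0.19, adjusted p = 0.118). In Cere its levels of 5.16, 3.62, 3.81 and 4.15 CPM in Ctrl and 5.12, 4.36 and 5.75 CPM in Upf3b-KO overlapped (0.28, SE 0.19, adjusted p = 0.377). As a share of Hnrnpdl counts it took 2.91% to 4.51% in FC Ctrl and 4.67% to 6.18% in FC Upf3b-KO, and 2.76% to 4.04% and 4.61% to 6.40% in Cere, without overlap in either region. The usage test did not pass (adjusted p = 1 in each region). Its 105-nt exon was included in 18.7% to 22.2% of spanning transcripts in FC Ctrl and 22.8% to 23.2% in FC Upf3b-KO, and in 15.4% to 16.9% and 20.0% to 21.1% in Cere. The same bases also lie in Hnrnpdl-205 and within a longer exon of the coding transcript Hnrnpdl-207, so this inclusion value is not a measure of Hnrnpdl-201 alone.

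Ptbp2-206, which lacks the 34-nt exon, was at 0.893 to 1.88 CPM in FC Ctrl and 1.34 to 1.78 CPM in FC Upf3b-KO (log2 fold change -0.02, SE 0.29, adjusted p = 0.983). In Cere it was at 1.40 to 2.37 and 1.83 to 2.07 CPM (SE 0.25, adjusted p = 0.996). Transcripts with the exon held 98.7% ± 0.428 (SD, n = 4) of spanning Ptbp2 counts in FC Ctrl and 98.4% ± 0.222 (SD, n = 4) in FC Upf3b-KO. The value was 98.0% in each Cere group. These are shares of counts, and Ptbp2-206 is short (576 nt, against 3780 nt for Ptbp2-201). Per annotated length, Ptbp2-206 took 7.88% and 8.61% of Ptbp2 in FC and 10.1% and 10.9% in Cere, in Ctrl and Upf3b-KO. At an SE of 0.29, a change of the size seen in Hnrnpl-213 would lie well outside the interval of the Ptbp2-206 estimate.

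Ptbp1-201 gave no such precision. It had 0, 0, 0.692 and 0.208 CPM in FC Ctrl and 0, 0, 0.344 and 0 CPM in FC Upf3b-KO, and did not pass the count filter there. In Cere it ranged from 0.111 to 3.20 CPM in Ctrl and from 0.314 to 2.76 CPM in Upf3b-KO (log2 fold change -0.02, SE 1.06, adjusted p = 0.992), so a change of 2-fold in either direction was not detectable. The share of spanning Ptbp1 counts with the 34-nt exon was 98.9% and 99.6% in FC, in Ctrl and Upf3b-KO. In Cere it was 94.6% and 94.1%. Hnrnpdl-205, Hnrnpa2b1-206 and Hnrnpa2b1-208 were likewise at or below 2.09 CPM in every group mean, with SEs of 0.52 to 2.09. Ptbp1-207, Ptbp1-212 and Ptbp2-208 were too low to test in either region.

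In all, 1 of 6 tested NMD-type member transcripts passed in FC and 1 of 7 in Cere, both upward, against a background of 8.67% of all tested transcripts passing upward in FC and 12.3% in Cere. The median log2 fold change was 0.12 in FC and -0.00 in Cere over these members, beside 0.28 over 2502 tested NMD-type transcripts of all genes in FC and 0.24 over 2774 in Cere. Across all member transcripts, 3 passed upward and 4 downward of 61 tested in FC (background downward 7.68%), and 3 upward and 10 downward of 69 in Cere (background downward 10.3%). These counts depend on the processing: in FC the 7 by edgeR became 14 by DESeq2, which passed 24.3% of all transcripts there where edgeR passed 16.4%. In Cere the 13 became 8 with the replicate number as a block (11.6% of all transcripts, against 22.6% without it) and 6 with Cere Upf3b-KO replicate 1 included (10% of all). By edgeR none reached a stricter threshold, an adjusted p under 0.01 with a change over 2-fold, which 3.22% of tested transcripts did in FC and 4.76% in Cere (at an unadjusted p under 0.05, 15 member transcripts passed in FC and 17 in Cere). None of the retained-intron members passed in either region (0 of 7 and 0 of 11 by edgeR, with 2 at an unadjusted p under 0.05 in each region).

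Summed per gene, the members moved little in FC and further, mostly downward, in Cere. In FC, 3 of 10 genes rose and 5 fell at an adjusted p under 0.05 (background 28% up and 25.3% down, so a majority of all genes passed), with a median log2 fold change of -0.07. In Cere, 1 rose and 9 fell (background 33.1% up and 31.3% down), with a median of -0.35 beside 0.01 over all genes. None of the 10 reached 2-fold at an adjusted p under 0.01, which 10.2% of genes did in FC and 13.2% in Cere. Against a change of 1.2-fold, a test added after the data were seen (glmTreat), 0 of 10 passed in FC (1 at an unadjusted p under 0.05) and 7 in Cere, beside 21.4% and 36.8% of all tested genes, and in Cere Ptbp1, Ptbp2 and Hnrnpl did not. The fits used trimmed-mean (TMM) library scaling, which places Upf3b-KO against Ctrl 0.08 lower in FC and 0.05 lower in Cere on the log2 scale than plain CPM does.

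**Figure D2:**
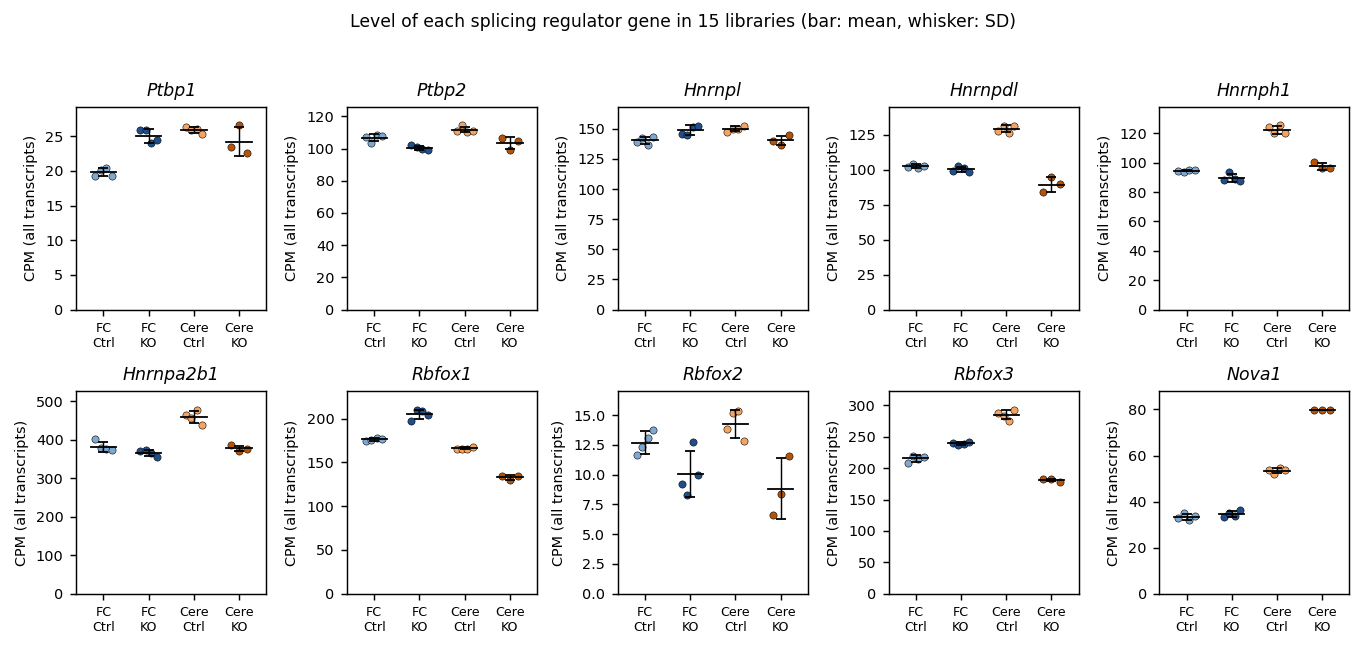
Level in CPM, summed over all transcripts of each of the 10 genes (y axis from 0), in 15 libraries by group (x axis), with a point per library, a bar at the mean and a whisker of 1 SD. Rbfox3 and Hnrnpdl drop in Cere Upf3b-KO to 178.8 to 182 CPM and 84.1 to 94.7 CPM, and Nova1 rises there to 79.7 to 80.0 CPM.

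Of the PTB pair, Ptbp1 (ENSMUSG00000006498, chr10:79690261-79700605), which represses neuronal exons in non-neuronal cells, was the member that rose most in FC. It was at 19.3, 20.1, 20.5 and 19.3 CPM in FC Ctrl and 25.8, 25.8, 24.0 and 24.5 CPM in FC Upf3b-KO, with no overlap (log2 fold change 0.26, SE 0.05, adjusted p = 0.000156). In Cere its levels of 26.3, 25.9, 26.0 and 25.3 CPM in Ctrl and 23.5, 26.5 and 22.6 CPM in Upf3b-KO overlapped, and the small decrease (-0.15, SE 0.06, adjusted p = 0.0317) was lost under DESeq2, with a replicate block (0.0522) and without Ctrl replicate 1 or 3 or Upf3b-KO replicate 2 or 4 (up to 0.183). Choroid plexus markers, as given above, and 4 of 5 endothelial markers rose in the same FC libraries (summed endothelial level 165 to 177 CPM in Ctrl and 202 to 211 CPM in Upf3b-KO). There 5 of 5 oligodendrocyte markers rose too, and 5 of 5 astrocyte markers fell. In Cere, where Ptbp1 did not rise, 6 of 6 choroid plexus, 3 of 5 endothelial and 5 of 5 oligodendrocyte markers rose. The part of any of these cells in the Ptbp1 values was not tested. Some 4.96% of the 50-base words of Ptbp1 transcripts also occur in another gene, Gm46400, the largest share among the members. For Hnrnpdl the share was 3.06% (mostly Gm11488) and for Nova1 2.82% (Gm33869, which overlaps it). The counts of these genes are less certain for this reason.

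Ptbp2 (ENSMUSG00000028134, chr3:119509386-119578115), the neuronal paralog, fell by the same small amount in both regions. Its levels were 107, 104, 108 and 108 CPM in FC Ctrl, 102, 101, 99.7 and 99.2 CPM in FC Upf3b-KO, 111, 114, 110.4 and 111 CPM in Cere Ctrl and 106, 98.9 and 104.9 CPM in Cere Upf3b-KO. The log2 fold change was -0.16 in FC (SE 0.02, adjusted p = 7.09e-06) and -0.16 in Cere (SE 0.03, adjusted p = 6.29e-05). The genotype effect differed between regions by -0.01 (SE 0.04, adjusted p = 0.837).

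The 4 hnRNP genes bind exonic and intronic sequences and take part in splicing, export and stability of most mRNAs. All 4 fell in Cere (background 31.3% down), and 3 of 4 fell in FC (background 25.3% down). Hnrnpdl (ENSMUSG00000029328, chr5:100179317-100187792), a paralog of the AU-rich element binding protein HNRNPD, fell most of the 4 in Cere and least of the 3 in FC. It was at 128, 131, 127 and 132 CPM in Cere Ctrl and 84.1, 94.7 and 89.7 CPM in Cere Upf3b-KO, well apart (log2 fold change -0.58, SE 0.03, adjusted p = 1.57e-11). In FC, at 101 to 105 CPM in Ctrl and 98.8 to 103 CPM in Upf3b-KO, the CPM values overlapped and the scaled change was small (-0.11, SE 0.02, adjusted p = 0.000705).

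Hnrnph1 (ENSMUSG00000007850, chr11:50267127-50277364), which binds G-rich runs, was at 124, 119.9, 125 and 120.1 CPM in Cere Ctrl and 100.4, 96.3 and 96.4 CPM in Cere Upf3b-KO (-0.38, SE 0.03, adjusted p = 5.26e-10). In FC it went from 94.0 to 95.2 CPM down to 87.3 to 93.8 CPM (-0.16, SE 0.03, adjusted p = 3.88e-05). Hnrnpa2b1 (ENSMUSG00000004980, chr6:51435248-51448049), which also sorts RNAs for transport, was the most abundant member. It fell from 463, 456, 478 and 439 CPM to 385, 371 and 376 CPM in Cere (-0.33, SE 0.02, adjusted p = 2.4e-10) and from 374 to 401 CPM to 354 to 373 CPM in FC (-0.14, SE 0.02, adjusted p = 8.46e-06). The groups did not overlap in any of these comparisons for Hnrnph1 and Hnrnpa2b1.

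Hnrnpl (ENSMUSG00000015165, chr7:28507966-28521693), which binds CA repeats, was the hnRNP member whose gene total changed least, although its poison-exon transcript rose. Its gene total was 139, 142, 137 and 144 CPM in FC Ctrl and 146, 145, 152 and 152 CPM in FC Upf3b-KO. These values do not overlap in CPM, but after TMM scaling the log2 fold change was 0.01 (SE 0.02, adjusted p = 0.808). In Cere it fell from 147 to 153 CPM to 136 to 144 CPM (-0.14, SE 0.02, adjusted p = 4.54e-05). There the coding transcript Hnrnpl-209, which includes a 111-nt extension of an exon, fell (-0.31, SE 0.06, adjusted p = 0.00723), and the coding transcript Hnrnpl-201 had a log2 fold change of 0.16 (SE 0.11, adjusted p = 0.388).

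The Rbfox genes encode 3 proteins with nearly the same RNA-binding domain, which recognise UGCAUG. Rbfox3 (ENSMUSG00000025576, chr11:118380442-118802423) changed in opposite directions in the 2 regions. It rose from 209, 220.2, 215 and 218 CPM to 239.6, 237, 239 and 242 CPM in FC (0.08, SE 0.02, adjusted p = 0.00138) and fell from 287, 284, 276 and 294 CPM to 182, 182 and 178.8 CPM in Cere (-0.70, SE 0.02, adjusted p = 1.13e-15). The difference between regions was -0.79 (SE 0.03, adjusted p = 3.17e-18), the largest interaction among the members. Cerebellar granule cells, which are NeuN-positive, showed lower markers in Cere Upf3b-KO (4 of 4 lower), as given above, and the part of this in the Rbfox3 value was not tested.

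Rbfox1 (ENSMUSG00000008658, chr16:5124665-7230343), a regulator of synaptic and ion channel exons, showed the same pattern. It rose from 175, 176, 178 and 177 CPM to 198, 210.0, 208 and 204 CPM in FC (0.14, SE 0.02, adjusted p = 4.66e-06) and fell from 165, 165, 166 and 168 CPM to 134, 129.9 and 134 CPM in Cere (-0.37, SE 0.02, adjusted p = 3.2e-11), an interaction of -0.53 (SE 0.03, adjusted p = 7.51e-14). Rbfox2 (ENSMUSG00000033565, chr15:76963189-77191303), the Rbfox gene with the broadest expression outside neurons, was low and variable. It was at 11.6, 12.3, 13.1 and 13.8 CPM in FC Ctrl and 9.25, 8.33, 12.8 and 9.95 CPM in FC Upf3b-KO, with overlap (-0.41, SE 0.10, adjusted p = 0.00185). In Cere it fell from 13.8, 15.2, 15.3 and 12.8 CPM to 6.58, 8.37 and 11.6 CPM (-0.74, SE 0.13, adjusted p = 8.25e-05), and the interaction of -0.34 did not pass (SE 0.19, adjusted p = 0.148).

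Nova1 (ENSMUSG00000021047, chr12:46741300-46866286), which binds YCAY clusters in neuronal pre-mRNAs, was the only member that rose in Cere. It was at 53.5, 51.9, 54.7 and 53.5 CPM in Cere Ctrl and 79.9, 80.0 and 79.7 CPM in Cere Upf3b-KO (0.53, SE 0.03, adjusted p = 1.97e-11). In FC it was at 31.8 to 35.2 CPM in Ctrl and 33.2 to 36.1 CPM in Upf3b-KO (-0.03, SE 0.04, adjusted p = 0.604). Its interaction of 0.55 (SE 0.05, adjusted p = 1.26e-09) was the only positive one. Of 4 markers of thalamic and midbrain excitatory neurons, 1 rose and 2 fell in Cere (summed level 141 to 148 CPM in Ctrl and 259 to 264 CPM in Upf3b-KO). The one that rose, Slc17a6, stood at 8.71 to 9.76 CPM in Ctrl and 155 to 157 CPM in Upf3b-KO, so the summed rise rests on this gene. In the same libraries 5 of 5 oligodendrocyte, 6 of 6 choroid plexus and 4 of 4 ependymal markers rose. There 4 of 4 granule cell and 4 of 4 Purkinje cell markers fell. The part of any of these cells in the Nova1 value was not tested.

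**Figure D3:**
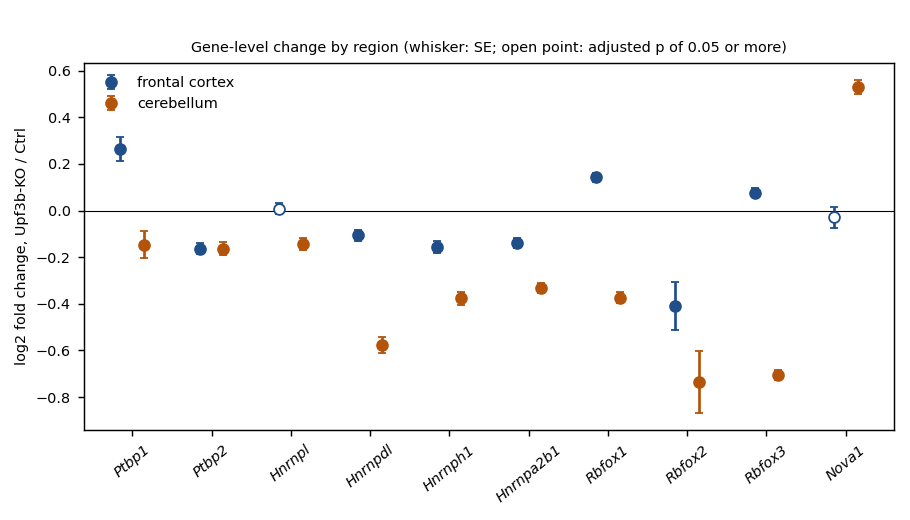
Log2 fold change of Upf3b-KO against Ctrl (y axis) for each member gene (x axis) in FC (blue) and Cere (orange), with whiskers of 1 SE and open points where the adjusted p was 0.05 or more. FC values run from -0.41 (Rbfox2) to 0.26 (Ptbp1) and Cere values from -0.74 (Rbfox2) to 0.53 (Nova1).

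The interaction was tested directly for all members. The genotype effect differed between regions for 8 of 10 genes, 7 of them lower in Cere than in FC (background 48% of all genes in either direction). Ptbp1 (-0.42, SE 0.08, adjusted p = 4e-05), Hnrnpdl (-0.48, SE 0.04, adjusted p = 2.21e-10), Hnrnph1 (-0.23, SE 0.04, adjusted p = 1.34e-05), Hnrnpa2b1 (-0.20, SE 0.04, adjusted p = 4.06e-05) and Hnrnpl (-0.16, SE 0.03, adjusted p = 0.000303) were among the 7. At the transcript level 10 of 76 passed, 2 upward and 8 downward (background 13.3%), and 5 passed with Cere Upf3b-KO replicate 1 included (6.27% of all). Those of the largest coding transcripts were Rbfox3-204 (-1.02), Rbfox3-205 (-0.94), Rbfox1-201 (-0.64), Hnrnpdl-202 (-0.50) and Nova1-201 (0.58).

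Levels between genes were compared per length, as TPM (transcript abundance per length, scaled to a fixed total) computed from the deposited counts and annotated transcript lengths. In FC Ctrl the order was Hnrnpa2b1 (339 ± 14.9 TPM), Hnrnpl (179.8 ± 8.69), Rbfox3 (153 ± 4.57), Rbfox1 (148 ± 8.18), Hnrnph1 (106 ± 3.57), Hnrnpdl (80.1 ± 1.34), Ptbp2 (74.97 ± 2.94), Rbfox2 (18.1 ± 1.48), Ptbp1 (17.8 ± 0.850) and Nova1 (11.4 ± 1.01; SD, n = 4 throughout). Rbfox3 and Rbfox1, and Rbfox2 and Ptbp1, were neighbours that differed by less than the larger of their SDs. In Cere Ctrl Hnrnpa2b1 again led (429 ± 16.4 TPM), Rbfox3 (209 ± 5.05) and Hnrnpl (207 ± 4.62) lay within their SD of each other, and Ptbp1 (24.7 ± 0.472) and Nova1 (18.8 ± 0.809) were lowest. The neuronal paralog Ptbp2 therefore exceeded Ptbp1 severalfold on this scale in both regions.

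Between the Ctrl regions, 6 members were higher in Cere and 1 was lower at an adjusted p under 0.05 (background 37.8% higher and 38.7% lower), and none by 2-fold. Against 1.2-fold (glmTreat) 4 of 10 passed, beside 55.4% of all genes. Nova1 showed the largest difference in log2 level, at 0.62 (SE 0.04, adjusted p = 5.56e-12). Rbfox3 (0.35, SE 0.02, adjusted p = 3.92e-12), Ptbp1 (0.33, SE 0.05, adjusted p = 3.34e-06), Hnrnph1 (0.32, SE 0.03, adjusted p = 3.87e-10), Hnrnpdl (0.28, SE 0.02, adjusted p = 1.4e-09) and Hnrnpa2b1 (0.21, SE 0.03, adjusted p = 2.14e-07) followed. Rbfox1 was lower (-0.14, SE 0.02, adjusted p = 1.45e-06). Ptbp2 (0.01, SE 0.03), Hnrnpl (0.04, SE 0.02) and Rbfox2 (0.12, SE 0.08) did not pass.

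Transcript make-up was compared by the usage test (diffSpliceDGE). Here 0 of 60 member transcripts passed for genotype in FC (background 0.86%, 1 at an unadjusted p under 0.05, 0 by limma on the log2 odds of the share), 1 of 69 in Cere (background 1.25%) and 3 of 64 between Ctrl regions (background 3.48%). Of the 3 regional cases, 2 were in Rbfox1 and the other was Rbfox3-209, described further on. Rbfox1-202, which starts at chr16:6627086, was at 0.292, 4.22, 1.19 and 0 CPM in FC Ctrl and 22.5, 13.5, 18.5 and 10.2 CPM in Cere Ctrl (usage difference 3.59 on the log2 scale, SE 0.67, adjusted p = 0.000168). By limma on the log2 odds of the share, added after the data were seen, this call was lost (adjusted p = 0.0857). Rbfox1-209, which starts at chr16:7011611, was at 60.3, 59.5, 76.0 and 63.0 CPM in FC Ctrl and 31.3, 34.5, 38.2 and 43.3 CPM in Cere Ctrl (usage -0.73, SE 0.22, adjusted p = 0.0416, and 0.0169 by limma). Limma also passed Rbfox1-204 between regions (adjusted p = 0.0135), a transcript without a defined CDS. Rbfox1-202 and Rbfox1-209 both carry a coding sequence of 1188 nt and differ in their annotated start and in their length (1191 and 3961 nt).

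**Figure D4:**
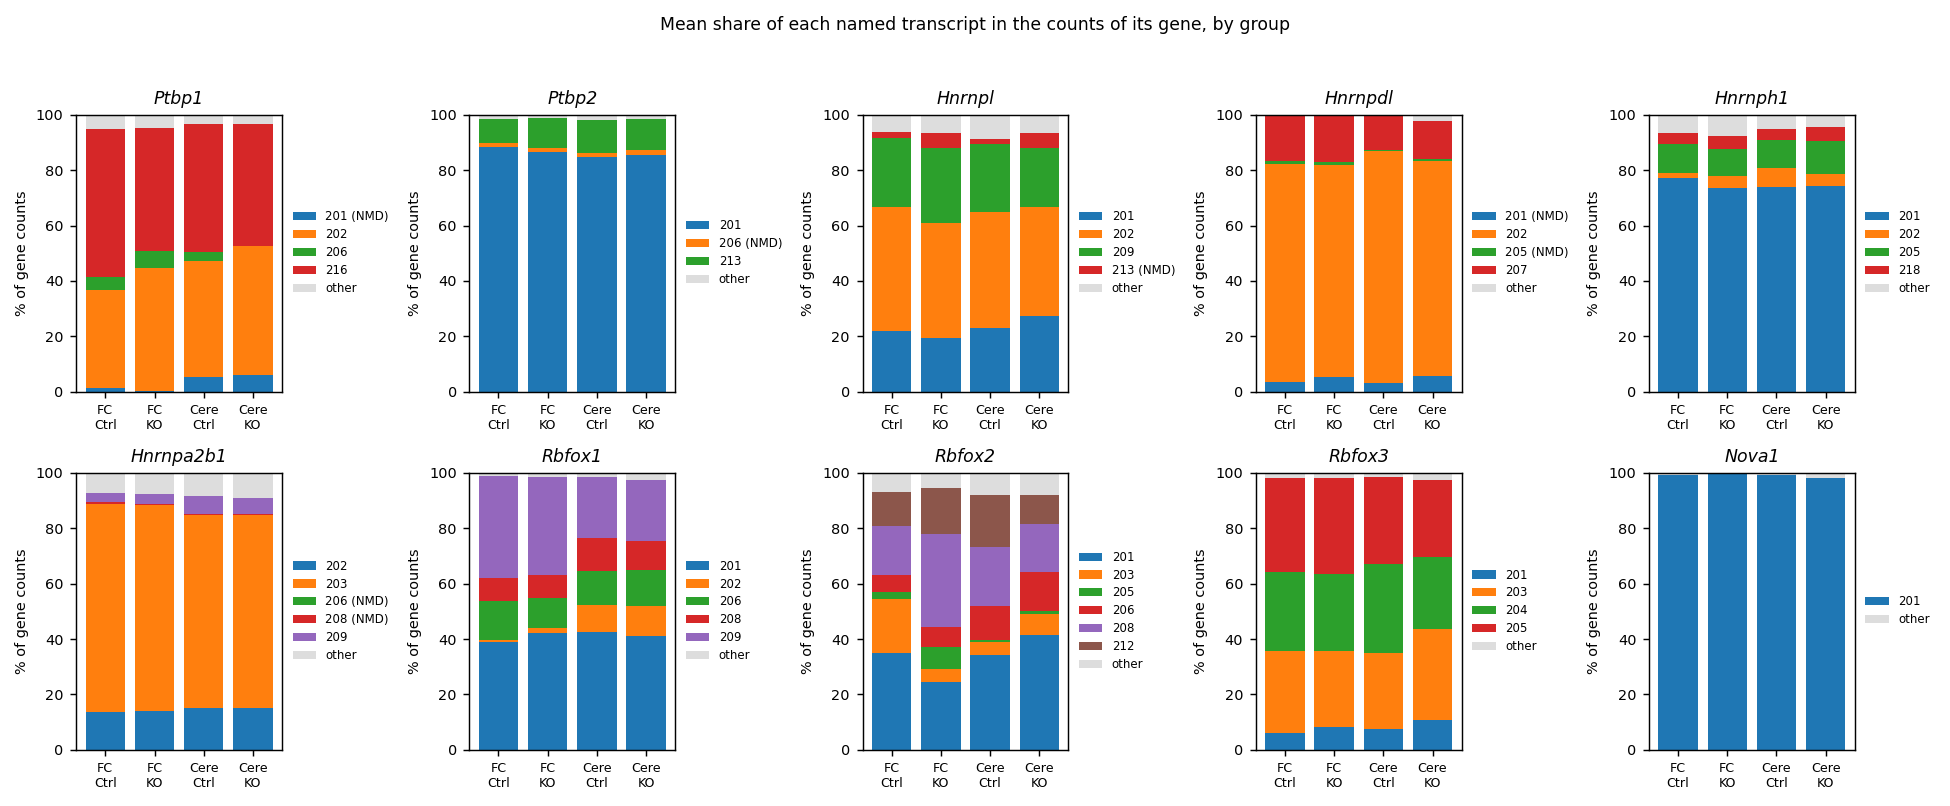
Mean share of each named transcript in the counts of its gene, in percent (y axis, stacked to 100), for the 4 groups (x axis) and 10 genes, with NMD-type transcripts marked and the remaining transcripts in grey. Rbfox1-202 is a thin band in FC Ctrl (0.807%) and a wider one in Cere Ctrl (9.74%), while most other bands keep similar widths.

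Rbfox1-201 was the largest Rbfox1 transcript in Cere Ctrl and close to Rbfox1-209 in FC Ctrl. It rose from 66.0 to 71.5 CPM to 81.9 to 89.9 CPM in FC (0.27, SE 0.04, adjusted p = 0.00177) and fell from 68.0 to 73.5 CPM to 52.7 to 57.8 CPM in Cere (-0.38, SE 0.05, adjusted p = 0.00142). Its share of Rbfox1 counts was 37.4% to 41.0% in FC Ctrl and 41.4% to 42.8% in FC Upf3b-KO, without overlap, and 41.0% to 44.4% and 39.4% to 43.0% in Cere, with overlap. The usage test did not pass in either region (adjusted p = 1 in each). Transcripts with the 54-nt exon of Rbfox1 that Rbfox1-208 lacks held 91.6% ± 2.61 and 91.5% ± 1.42 of spanning counts in FC Ctrl and Upf3b-KO (SD). In Cere the values were 87.7% ± 3.14 and 89.2% ± 0.836 (SD). These are shares of counts, and Rbfox1-208 is short (1321 nt, against 4014 nt for Rbfox1-201). Per annotated length, Rbfox1-208 took 18.03% and 18.24% of Rbfox1 in FC and 21.81% and 18.43% in Cere, in Ctrl and Upf3b-KO.

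Rbfox3 had 3 coding transcripts of similar share, Rbfox3-203, Rbfox3-204 and Rbfox3-205, of which Rbfox3-203 and Rbfox3-204 lack a 141-nt coding segment of Rbfox3-205 and carry a 40-nt untranslated exon. All 3 fell in Cere, with log2 fold changes of -0.41 (SE 0.08, adjusted p = 0.00799), -0.96 (SE 0.05, adjusted p = 1.35e-05) and -0.83 (SE 0.07, adjusted p = 0.00025) respectively. Rbfox3-201, which has another 3′ end, differed from these. It rose from 12.0 to 13.3 CPM to 19.1 to 22.0 CPM in FC (0.59, SE 0.07, adjusted p = 0.000758) and was at 18.8 to 22.5 and 19.6 to 20.0 CPM in Cere (-0.08, SE 0.08, adjusted p = 0.528). Its share of Rbfox3 counts went from 5.90% ± 0.219 to 8.36% ± 0.587 in FC and from 7.31% ± 0.429 to 10.9% ± 0.119 in Cere, with no overlap between genotypes, although the usage test did not pass over all transcripts (adjusted p = 1 in FC and 0.579 in Cere). The 141-nt segment was included in 40.5%, 43.6%, 39.4% and 39.9% of spanning transcripts in FC Ctrl, FC Upf3b-KO, Cere Ctrl and Cere Upf3b-KO.

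The only member transcript to pass the usage test for genotype was Rbfox3-209, a short incomplete transcript that took under 1% of Rbfox3 counts and is named because it alone passed. It was at 0, 0.282, 0.0598 and 0.0683 CPM in Cere Ctrl and 1.14, 1.06 and 1.06 CPM in Cere Upf3b-KO (usage 3.93, SE 0.64, adjusted p = 0.0105, but 0.105 by limma on the log2 odds). Its level change had an adjusted p of 0.0494, which rose to as much as 0.127 when a library was left out and to 0.0834 with a replicate block. In FC it was at 0.484 to 1.06 CPM in Ctrl and 0.578 to 1.26 CPM in Upf3b-KO, so that Cere Ctrl was the low group. The usage call was lost without Cere Ctrl replicate 1 or Cere Upf3b-KO replicate 2 or 4.

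For 3 of the 4 hnRNP members the main coding transcript passed in the direction of the gene in both regions. Hnrnpdl-202 held 78.8% of Hnrnpdl counts in FC Ctrl and 83.5% in Cere Ctrl, and it fell in FC (-0.14, SE 0.03, adjusted p = 0.00798) and in Cere (-0.64, SE 0.05, adjusted p = 0.000192). Hnrnph1-201 (-0.21, SE 0.04, adjusted p = 0.0144 in FC and -0.32, SE 0.06, adjusted p = 0.0079 in Cere) and Hnrnpa2b1-203 (-0.14, SE 0.03, adjusted p = 0.0162 and -0.29, SE 0.05, adjusted p = 0.00399) did the same. Hnrnpl-202, the main transcript of Hnrnpl, did not pass in FC (-0.10, SE 0.08, adjusted p = 0.549) or in Cere (-0.18, SE 0.08, adjusted p = 0.164). The B1 exon of Hnrnpa2b1, printed above, was included in 14.4% ± 2.30, 14.8% ± 1.86, 16.1% ± 1.98 and 16.2% ± 3.63 of spanning transcripts in FC Ctrl, FC Upf3b-KO, Cere Ctrl and Cere Upf3b-KO, differing by less than the SD. The 120-nt glycine-rich exon was included in 93.4% to 95.2% in FC Ctrl and 89.6% to 91.4% in Cere Ctrl, with no overlap. Hnrnpa2b1-209, the coding transcript without it, was higher in Cere Ctrl (log2 difference 1.12, SE 0.30, adjusted p = 0.0177), while its usage did not pass (adjusted p = 0.0849).

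For the PTB pair, Ptbp2-201 held 83.0% to 89.6% of Ptbp2 counts in the Ctrl libraries and fell in FC (-0.18, SE 0.02, adjusted p = 0.000929), and the rest was mainly Ptbp2-213, which lacks 3 nt. The 78-nt exon of Ptbp1 was included in 56.6% ± 11.8, 46.7% ± 10.8, 47.6% ± 8.24 and 45.5% ± 2.91 of spanning transcripts in FC Ctrl, FC Upf3b-KO, Cere Ctrl and Cere Upf3b-KO, and all groups overlapped. Nova1 was nearly a single-transcript gene: Nova1-201 took 98.4% to 99.7% of its counts in the group means and rose in Cere with the gene (0.57, SE 0.03, adjusted p = 1.39e-05). In Rbfox2 the shares scattered too widely to compare. Rbfox2-208, for instance, took 2.70% to 30.8% of Rbfox2 counts among the FC Ctrl libraries, and the 40-nt exon it carries was included in 45.3% ± 13.4 and 49.4% ± 9.70 of spanning transcripts in FC Ctrl and Upf3b-KO. Rbfox2-212, an incomplete coding transcript, fell in Cere (-1.54, adjusted p = 0.0237), a call lost in 5 of 7 fits without a library (adjusted p up to 0.0887) and with a replicate block (0.108). Hnrnpl-204, which also fell in Cere (-0.86, adjusted p = 0.0462), was lost in all 7 (up to 0.142).

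Related genes were taken from 2 lists set by family and function. Of 23 other hnRNP family genes, 2 rose and 14 fell in FC (background 28% up and 25.3% down), with a median log2 fold change of -0.14. In Cere 1 rose and 20 fell (background 33.1% up and 31.3% down), with a median of -0.39. The medians over all genes were 0.00 and 0.01. In FC the values ran from -0.47 for Hnrnpd, the paralog of Hnrnpdl (99.8 ± 2.79 CPM in Ctrl and 76.0 ± 2.18 CPM in Upf3b-KO), to 0.19 for Hnrnpm. In Cere they ran from -0.58 for Pcbp2, a poly(C)-binding protein, to 0.12 for Pcbp1. Ptbp3, the third PTB paralog, had a log2 fold change of 0.02 in FC (adjusted p = 0.737) and fell in Cere (-0.38, adjusted p = 9.85e-05). The hnRNP members' Cere values of -0.14 to -0.58 lay within the range of the rest of the family.

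Of 23 other neuronal splicing regulators, 22 were tested and Mbnl3 was too low. In FC none of them rose and 14 fell (median -0.14, background 28% up and 25.3% down), led by Celf6 (-0.46). In Cere 7 rose and 11 fell (median -0.14, background 33.1% up and 31.3% down). Elavl2 (1.92, adjusted p = 2.34e-19), a neuronal Hu protein, Khdrbs3 (1.56, adjusted p = 1.95e-08), a STAR-family protein, and Celf6 (1.46, adjusted p = 6.29e-10) rose by more than 2-fold, further than Nova1. Celf1 fell most (-0.81, adjusted p = 9.88e-17), and Nova2, the paralog of Nova1, fell in both regions (-0.34 in FC and -0.37 in Cere). Elavl2, Khdrbs3 and Celf6 were lower in Cere Ctrl than in FC Ctrl (-2.06, -4.43 and -2.51), so these large rises started from a low cerebellar level.

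**Figure D5:**
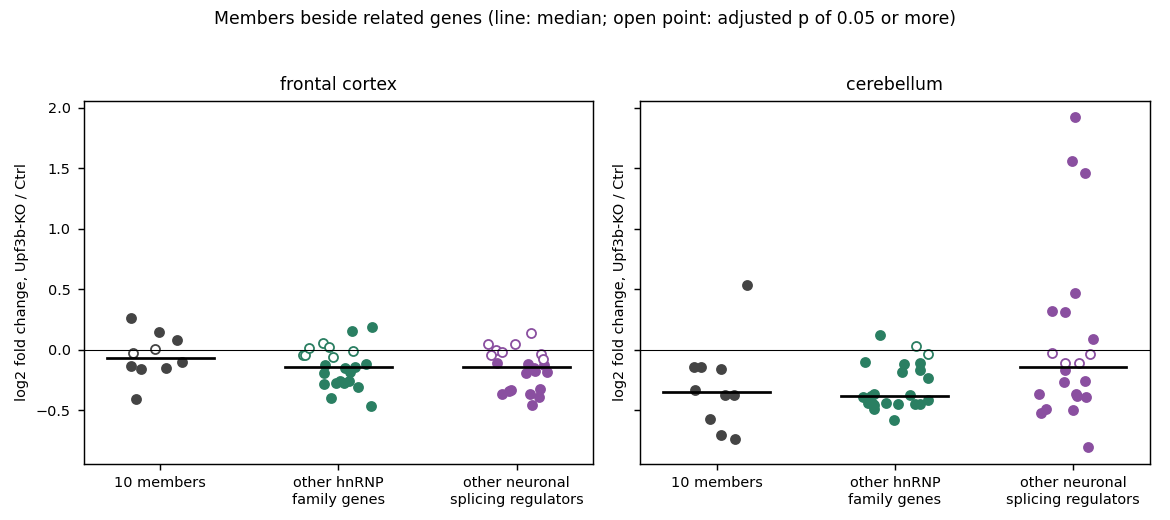
Log2 fold change of Upf3b-KO against Ctrl (y axis) in FC (left) and Cere (right) for the 10 members, 23 other hnRNP family genes and 22 tested neuronal splicing regulators, with a point per gene, open where the adjusted p was 0.05 or more, and a line at the median. In Cere the members and the hnRNP family centre at -0.35 and -0.39, whereas 3 neuronal regulators stand above 1.

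For each member, the gene with the most similar profile was found by Pearson's r of log2 CPM over the 15 libraries among the 10330 genes averaging 10 CPM or more. These values describe 4 groups rather than 15 independent points. Nova1 was most like Bend6 (0.997), Rbfox1 like Prkcz (0.991), Hnrnph1 like Med22 (0.988), Rbfox3 like Mctp1 (0.985), Hnrnpdl like Malat1 (0.979), Hnrnpa2b1 like Smim14 (0.974), Ptbp1 like AW554918 (0.952) and Ptbp2 like Smim15 (0.939). The lowest were Rbfox2 with Ing5 (0.908) and Hnrnpl with Zfp438 (0.904).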

How the data were processed

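The authors depleted ribosomal RNA, made SMART-Seq libraries, sequenced read pairs, aligned them to GRCm39 with STAR 2.5.2b and then ran RSEM. Deposited values are its expected counts per Ensembl transcript, rounded here to whole numbers. RSEM divides reads that fit several isoforms or near copies among them by a model, so single-transcript values carry more error than gene sums (transcript coefficient of variation 0.495 in FC and 0.528 in Cere), and overlapping genes are uncertain since use of strand was not given in the sources used here. Symbols, types and exons came from GENCODE vM39, to which 141102 of 142435 transcripts matched by identifier. A 10-gene list, 2 lists of related genes and cell-type marker lists were used. The members and lists were chosen with earlier results of these data known.

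Counts were analysed in R 4.3.3 with edgeR 4.0.16 (filterByExpr with a minimum count of 10 and a minimum total of 15, TMM, quasi-likelihood F test, Benjamini-Hochberg over all features) and limma 3.58.1. A feature passed at an adjusted p under 0.05. Fits used 4 against 4 libraries in FC, 4 against 3 in Cere, 4 against 4 for the Ctrl regions and 15 for the interaction. Usage was tested with diffSpliceDGE. CPM is counts over the library total, and SDs are over libraries. In the deep libraries 3 counts correspond to 0.0851 to 0.108 CPM, which covers counting error only. Transcripts named are those with at least 5% of their gene in a group mean and tested NMD-type transcripts, and any other was picked once values were known. Exon inclusion is the CPM of coding and NMD-type transcripts that contain an exon over that of all such transcripts that span it. Retained-intron transcripts and those without a defined CDS were left out, and transcript length was not corrected for. Same-numbered libraries did not deviate together (correlations of -0.0987 to 0.153), so no pairing was used. The labels do not say which FC and Cere libraries share an animal. This check cannot show that they are independent, and the Ctrl region and interaction fits treat them as if they were. Simulated counts were run only through the FC genotype fits (genes, transcripts and usage), and the other fits were not simulated. DESeq2 1.42.0 and other settings were alternatives.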

Additional observations from a re-analysis of the deposited data

Results flagged for a closer look

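The genotype effect differed between regions, by the interaction term of the edgeR fit over 15 libraries, for 8 genes and 8 named transcripts. The effect in Cere minus that in FC, on the log2 scale, was -0.79 for Rbfox3, -0.53 for Rbfox1, -0.48 for Hnrnpdl, -0.42 for Ptbp1, -0.23 for Hnrnph1, -0.20 for Hnrnpa2b1, -0.16 for Hnrnpl and 0.55 for Nova1. Among transcripts it was -1.02 for Rbfox3-204, -0.94 for Rbfox3-205, -0.67 for Rbfox3-201, -0.64 for Rbfox1-201, -0.50 for Hnrnpdl-202, -0.46 for Hnrnpl-209, -1.55 for Rbfox2-212 and 0.58 for Nova1-201. The Rbfox2-212 value lay at the threshold (adjusted p = 0.0488) and passed in 4 of 15 fits without a library.

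A single library stood apart from the other 3 of its group in 15 of 150 quantities, where chance gives about 1 in 20. At the gene level this was Hnrnpa2b1 in FC Ctrl replicate 1, at 401 CPM (others 374 to 378). In Cere Ctrl replicate 2, Ptbp2-201 was high at 100.9 CPM (91.6 to 93.1), Ptbp2-213 low at 9.50 CPM (14.2 to 14.8) and Rbfox2-212 low at 1.74 CPM (2.87 to 2.998). In Cere Ctrl replicate 1, Rbfox2-205 was at 0.349 CPM (others 0). In FC Ctrl replicate 2, Hnrnpa2b1-202 was low at 39.03 CPM (55.1 to 56.3) and Hnrnpa2b1-208 high at 7.65 CPM (0 to 0.723), and in FC Ctrl replicate 3, Hnrnph1-205 was at 12.0 CPM (9.05 to 9.31). In FC Upf3b-KO, replicate 1 held Rbfox3-205 at 91.0 CPM (78.5 to 80.3), and replicate 2 held Rbfox3-204 at 59.9 CPM (68.0 to 69.3) and Rbfox1-209 at 67.6 CPM (73.8 to 74.3). Replicate 3 held Rbfox2-203 at 2.51 CPM and Ptbp1-201 at 0.344 CPM (others 0), and replicate 4 held Hnrnpl-201 at 37.6 CPM (25.2 to 26.2) and Hnrnpa2b1-206 at 0.497 CPM (others 0).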

How the results depend on the processing

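No gene or transcript value that passed the test changed direction under the alternatives run, and scaling by DESeq2's size factors changed no call. The cause of the changes below was not tested. At an adjusted p under 0.01 with a change over 2-fold, member genes passing numbered 0 in FC (8 at an adjusted p under 0.05), 0 in Cere (10), 0 between Ctrl regions (7) and 0 for the interaction (8), and member transcripts 0 in FC (7), 0 in Cere (13) and 1 for the interaction (10). At an adjusted p under 0.01, usage calls numbered 0 in Cere (1) and 1 between regions (3). DESeq2 passed 14 transcripts in FC (24.3% of all with an adjusted p). With the replicate number as a block 8 transcripts passed in Cere (11.6% of all), and every other count with the block stayed within 1.5 times. With the shallow library included, 6 transcripts passed in Cere (10% of all) and 5 for the interaction (6.27%). The Cere usage count was 0 without a filter, 2 with all 15 deep libraries in 1 fit and 0 by limma on the log2 odds, and the last was added after the data were seen. Against 1.2-fold, also added then, 0 member genes passed in FC and 4 of 10 between Ctrl regions, beside 21.4% and 55.4% of all genes. Leaving out each library gave usage counts of 0 to 1 in FC (1 without FC Upf3b-KO replicate 3), 0 to 1 in Cere (0 without Ctrl replicate 1 or Upf3b-KO replicate 2 or 4) and 1 to 3 between regions (1 without FC Ctrl replicate 3). Shares computed per annotated length moved by more than 1 SD in 100 of 160 group values. Several NMD-type transcripts near or below 1 CPM varied widely between libraries. Whether this comes from depth or from the division of reads among isoforms was not tested.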

Other observations

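In the shallow library Cere Upf3b-KO 1, where 3 counts correspond to 46.2 CPM, the members stood at 61.6 CPM (Ptbp2, Rbfox2) to 396 CPM (Hnrnpa2b1). Nova1 was at 123 CPM and Rbfox3 at 108 CPM there, and these values rest on a few counts each.

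The other marker lists, and those given above in the region not yet described, had these counts. Over all tested genes, 28% rose and 25.3% fell in FC, and 33.1% rose and 31.3% fell in Cere. In FC 5 of 5 oligodendrocyte markers rose and 5 of 5 astrocyte markers fell, 2 of 5 neuronal markers rose and 3 fell, 3 of 5 cortical excitatory neuron markers fell, 1 of 5 microglial markers rose and 1 fell, and 4 of 4 ependymal and 5 of 5 male germ cell markers rose. Also in FC, of 4 Purkinje cell markers 3 were tested and 2 rose, of 4 granule cell markers 2 were tested and 1 fell, and of 4 thalamic and midbrain excitatory neuron markers 1 rose and 2 fell. In Cere 1 of 5 astrocyte markers rose and 4 fell, 3 of 5 neuronal markers rose and 2 fell, and 4 of 5 microglial, 3 of 5 endothelial and 4 of 4 ependymal markers rose. Also in Cere, 3 of 6 striatal medium spiny neuron markers rose and 1 fell, 2 of 3 tested cortical excitatory neuron markers fell, and of 4 tested male germ cell markers 3 rose and 1 fell. Their part in the values of the members was not tested.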
